A study of Mus musculus with 8 samples.

Results

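A set of 8 genes used as markers of neutrophils, S100a8, S100a9, Ngp, Camp, Ltf, Retnlg, Mmp8 and Mmp9, were followed across 8 microarrays of mice that drank lead acetate. They were taken by gene name from the probes of the array, which gave 8 of 37074 gene names and 9 of 56605 probes, because Mmp9 has 2 probes. The members were chosen by measured values: S100a8 and S100a9 read below control in every tissue at the high dose, and the others were added as genes of the same cells. The high-dose differences from control are therefore given as a description, with no test.

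The tissues came from male mice that drank distilled water (control) or water with lead acetate for 3 weeks, the low dose being 100 mg/L and the high dose 1000 mg/L. Brain and kidney were profiled at control, low and high dose, and liver at high dose and control. Each of the 8 groups is 1 array, hybridised with Cy3-labelled cRNA from small tissue pieces, so no dose difference has a replicate check. Strain, age, the number of animals behind an array and whether blood was flushed from the tissues are not given in the sources used here.

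Neutrophils are short-lived blood leukocytes that kill microbes with enzymes and metal-binding proteins. S100a8 and S100a9 encode the subunits of calprotectin, a calcium- and zinc-binding protein that fills the neutrophil cytosol and, once released, signals through the receptors TLR4 and RAGE. Ngp (neutrophilic granule protein), Camp (the cathelicidin precursor) and Ltf (lactoferrin, which binds iron) are packed into specific granules in the bone marrow. Mmp8 and Mmp9 encode a collagenase and a gelatinase of neutrophil granules, and Retnlg encodes a resistin-like secreted protein. The calprotectin subunits are thus cytosolic rather than granule proteins, and granule proteins are made mainly before the cell leaves the marrow. Monocytes also make calprotectin.

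S100a8 and S100a9 are neighbouring coding genes on chromosome 3, with S100a7a before and Pglyrp4 after the pair. Camp, Ngp, Ltf and Mmp8 lie on chromosome 9, Retnlg on chromosome 16 and Mmp9 on chromosome 2. The S100a8 reading rests on 1 probe of 60 bases, which the array annotation places at chr3:90473778-90473837 on the plus strand of mm9. It is shown because every S100a8 value here is the fluorescence of that stretch, with no base marked by capitals.
S100a8 probe: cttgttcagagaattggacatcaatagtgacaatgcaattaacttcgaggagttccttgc

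The 250 bases before the annotated starts of S100a8, S100a9 and Camp are shown because these are the 3 members measured on every array and hold the members' measured dose values. The sequences are RefSeq's, in GRCm38.p6, at chr3:90668821-90669070 (plus strand) for S100a8, chr3:90695722-90695971 (minus strand) for S100a9 and chr9:109849457-109849706 (minus strand) for Camp. Capitals mark matches to motifs of 2 myeloid transcription factors, C/EBP (TTGCNNAA, or TTNNGCAA on the other strand) and PU.1 (GAGGAA, or TTCCTC on the other strand).
S100a8 promoter: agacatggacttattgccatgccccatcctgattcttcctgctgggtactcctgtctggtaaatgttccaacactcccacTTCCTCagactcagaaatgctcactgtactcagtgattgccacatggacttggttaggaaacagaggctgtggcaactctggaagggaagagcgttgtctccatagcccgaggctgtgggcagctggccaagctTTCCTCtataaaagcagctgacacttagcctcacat
S100a9 promoter: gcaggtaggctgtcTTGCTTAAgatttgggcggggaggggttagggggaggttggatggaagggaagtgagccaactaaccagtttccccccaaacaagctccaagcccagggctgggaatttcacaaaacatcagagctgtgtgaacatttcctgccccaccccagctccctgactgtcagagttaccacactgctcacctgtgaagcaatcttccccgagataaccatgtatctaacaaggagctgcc
Camp promoter: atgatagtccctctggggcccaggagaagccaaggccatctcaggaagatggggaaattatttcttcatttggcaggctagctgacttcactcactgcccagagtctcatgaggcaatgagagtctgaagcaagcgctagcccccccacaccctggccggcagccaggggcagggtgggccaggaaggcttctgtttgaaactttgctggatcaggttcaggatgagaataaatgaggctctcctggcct
The S100a8 stretch held 2 PU.1 matches, beginning 170 and 36 bases before the start, and no C/EBP match. The S100a9 stretch held 1 C/EBP match, beginning 236 bases before the start, and no PU.1 match, and the Camp stretch held neither. Among 32851 promoters of the same length, 9.56% held the C/EBP letters and 23.3% the PU.1 letters, and a match is no evidence of binding. Promoters were matched for 7 of the 8 members.

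Detection split the members sharply. The scanner software marks a spot as well above background when its signal clearly exceeds the local background. S100a8, S100a9 and Camp were well above background on all 8 arrays. Mmp8 was so on 3 arrays (brain control, brain low dose and kidney control), Retnlg on 1 (liver control), and Ngp and Ltf on none. One Mmp9 probe was well above background on no array, and the other on the kidney low-dose array only. No member spot was saturated or marked as an outlier. Of 13 neutrophil surface receptor genes, 4 were not well above background on any array, namely Cxcr2, Il1r2, Clec4e and Ccr1. The tissue labels were checked on 4 marker genes each. The brain markers summed to between 138 and 140 times the array's 75th percentile in brain and at most 26.0 elsewhere. The kidney markers summed to between 264 and 321 in kidney and at most 0.367 elsewhere, and the liver markers to between 3201 and 3265 in liver and at most 221 elsewhere.

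**Figure D1:**
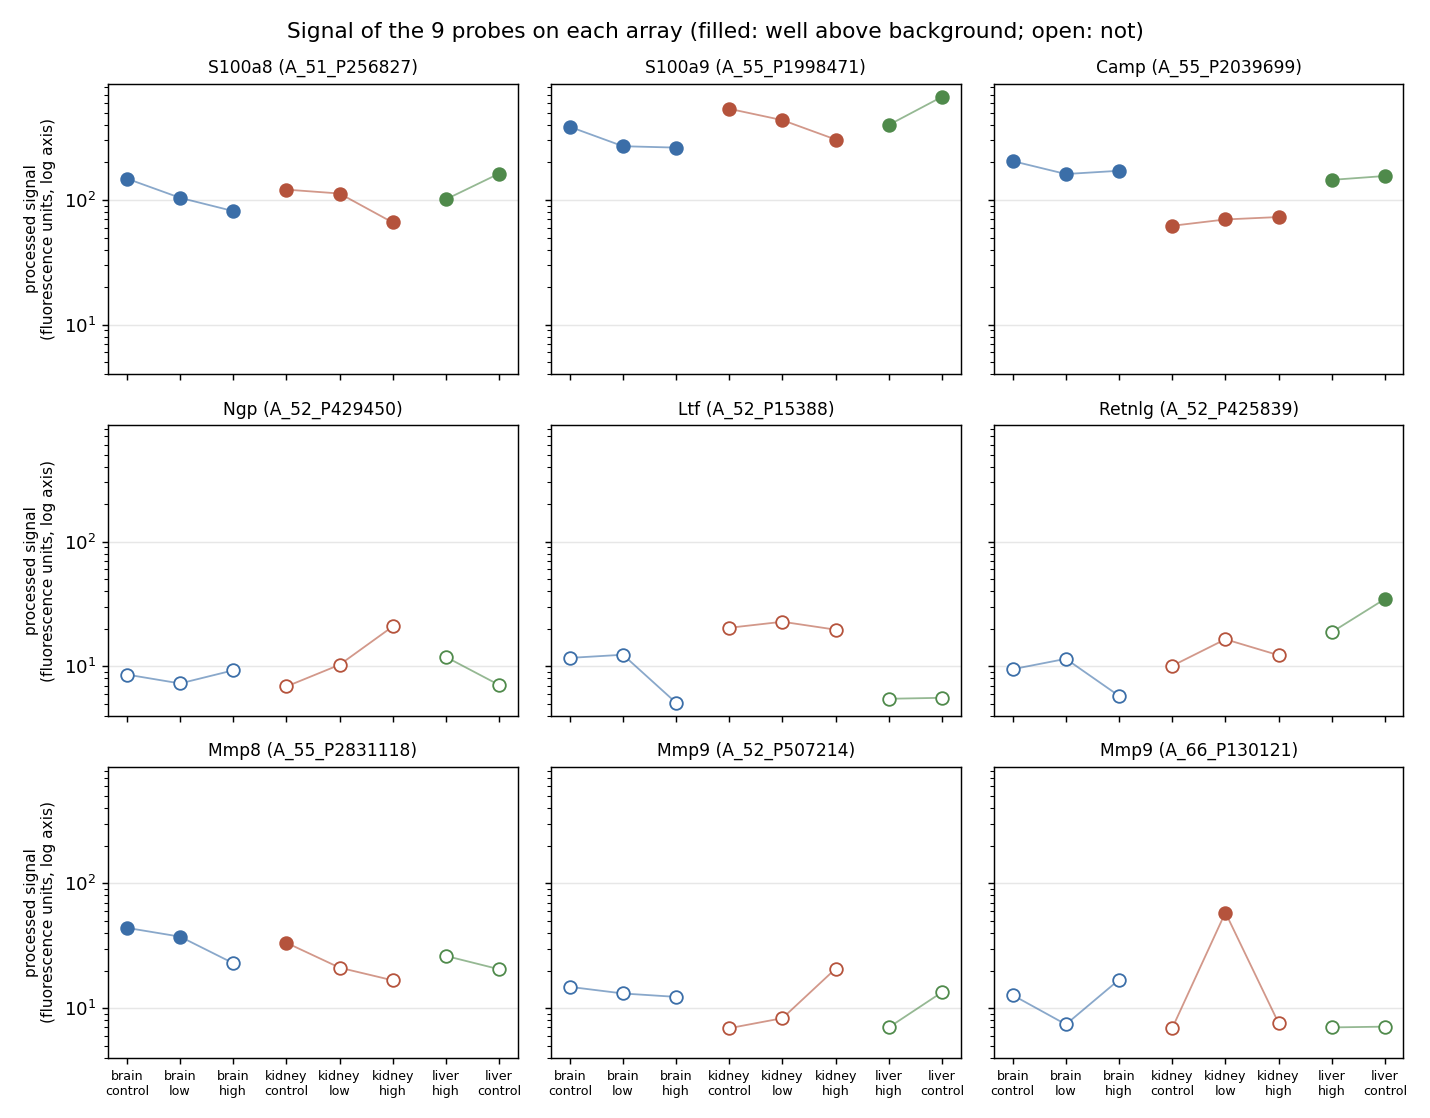
Processed signal (fluorescence units, log axis) of the 9 member probes on each of the 8 arrays, with filled points for spots well above background and open points for the others, and lines joining the arrays of a tissue. S100a8 and S100a9 are filled throughout and have their lowest unscaled signal at the high dose in each tissue, Camp is filled and nearly level within a tissue, and most other points are open.

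The S100a8 probe read 148.3, 104.1 and 81.5 fluorescence units in brain at control, low and high dose. In kidney it read 121.1, 112.7 and 66 units in the same order, and in liver 101.2 units at the high dose against 162.7 in control. The high-dose array had the lowest S100a8 signal of its tissue in all 3 tissues. After scaling each array to the 75th percentile of its signal, the high-dose level was 57.1% of control in brain, 50.8% in kidney and 61.0% in liver. These are log2 differences of -0.81 (array error 0.23), -0.98 (0.25) and -0.71 (0.22), where the array error is what the scanner software reports for both spots and covers no variation between animals.

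The S100a9 probe read 386.2, 269.9 and 263 units in brain at control, low and high dose. Its kidney signals were 538.3, 436.7 and 305.5 units in that order, and its liver signals 399.9 units at the high dose and 671.5 in control. The high-dose array had the lowest unscaled signal of each tissue, but in brain the scaled S100a9 level was -1.80 at the high dose and -1.81 at the low dose, so both stood level. The scaled high-dose level was 70.7% of control in brain, 52.9% in kidney and 58.4% in liver, or log2 differences of -0.50 (array error 0.21), -0.92 (0.21) and -0.78 (0.21). In bulk tissue, fewer cells of a type and less RNA per cell cannot be told apart, and this holds for every difference below.

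A difference was called when it was at least 2-fold, more than 3 times its array error and measured well above background on both arrays. By that rule 0 of the 3 members measured at the high dose were called in brain, kidney or liver. The rule called 0.252% of 22643 genes lower and 0.199% higher in brain. It called 0.542% of 21232 genes lower and 1.12% higher in kidney, and 0.456% of 19062 lower and 0.336% higher in liver. At 1.5-fold, a limit added after the values were seen, S100a8 counted as lower in brain, and both S100a8 and S100a9 in kidney and in liver. The share of all genes lower by that limit was 0.543% in brain, 1.29% in kidney and 1.18% in liver. With another background correction (normexp) the S100a8 differences shrank to -0.51 in brain, -0.55 in kidney and -0.49 in liver.

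**Figure D2:**
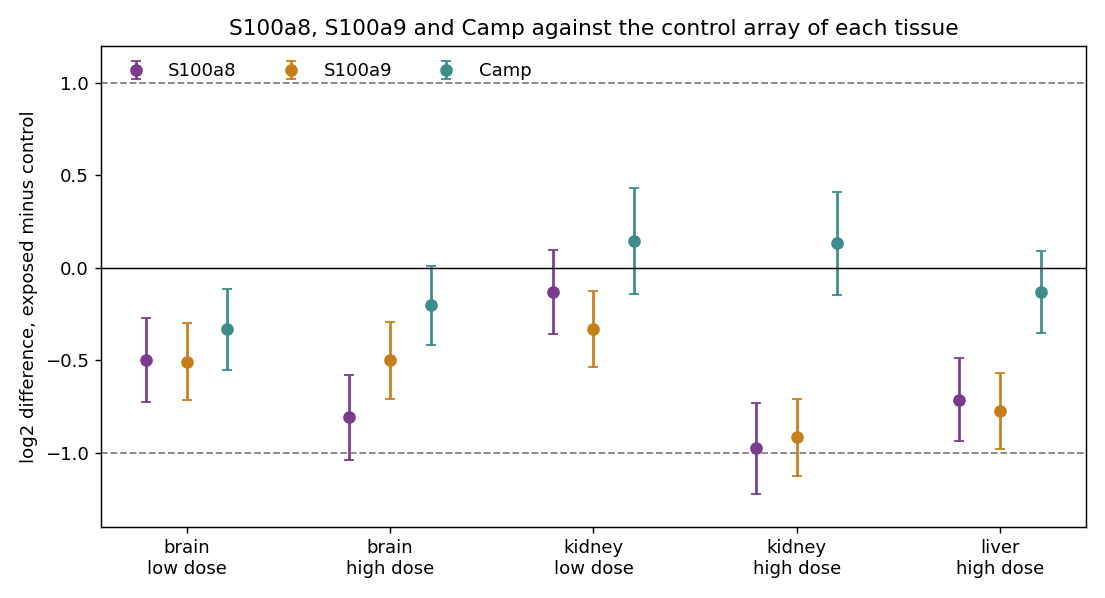
Log2 difference from the control array of the same tissue for S100a8, S100a9 and Camp, with bars of 1 array error on either side and dashed lines at 2-fold. S100a8 and S100a9 lie below 0 in all 5 comparisons and Camp lies near 0 or slightly to either side.

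Among all genes measured on both arrays, 0.53% had a difference at or below that of S100a8 in brain at the high dose, 0.617% in kidney and 1.27% in liver. For S100a9 the shares were 1.82%, 0.73% and 1.02%. A total of 2919 of 17508 genes (16.7%) read below control in all 3 tissues by any amount. Only S100a8, S100a9 and Fos did so by at least 0.50, the smallest of the S100a9 differences, which is 0.0171% of the genes compared. By at least 0.71, the smallest of the S100a8 differences, S100a8 alone did (0.00571%). Fos, an immediate early transcription factor gene, differed by -0.56 in brain, -0.54 in kidney and -1.08 in liver. These ranks restate the values by which the pair was chosen.

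**Figure D3:**
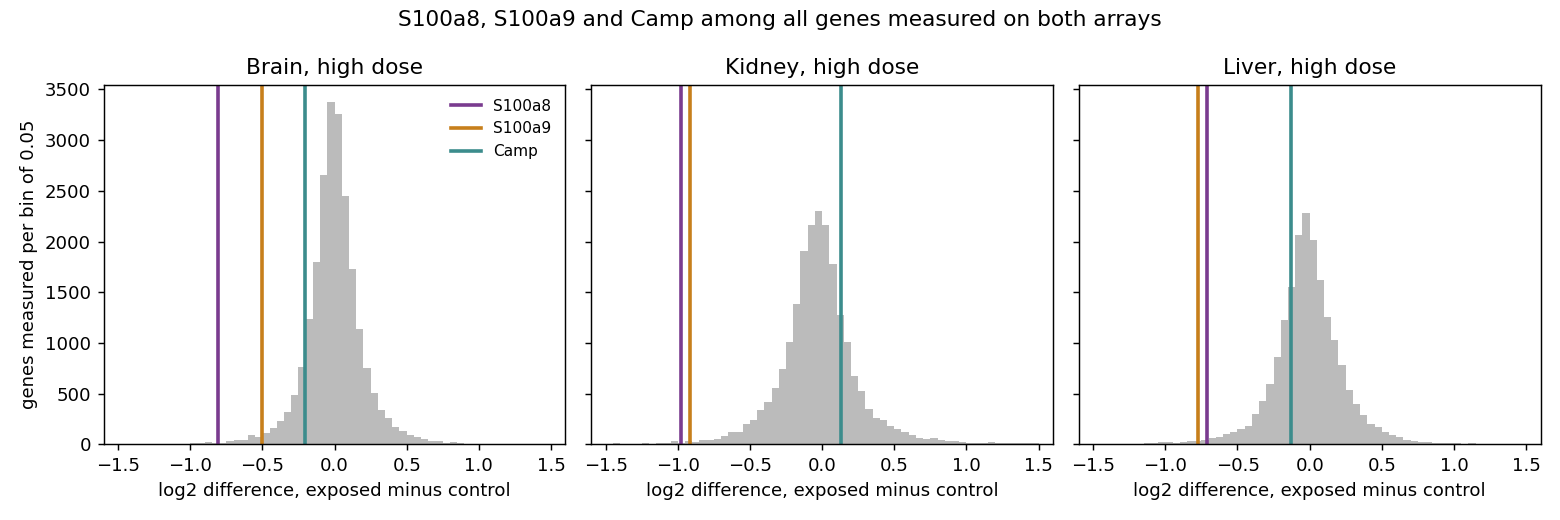
Numbers of genes by log2 difference at the high dose (grey, bins of 0.05) in brain, kidney and liver, with vertical lines for S100a8, S100a9 and Camp. The S100a8 and S100a9 lines stand in the lower tail in each tissue, from -0.50 to -0.98, and the Camp line stands within the bulk.

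Camp had values nearer to control. Its signals in brain were 205, 161.5 and 171.5 units at control, low and high dose. In kidney they were 62.1, 69.8 and 73 units, and in liver 145 units at the high dose against 155.7 in control. In kidney both exposed arrays read above control. At the high dose the log2 difference was -0.20 (array error 0.22) in brain, 0.13 (0.28) in kidney and -0.13 (0.22) in liver, each within its array error, and the kidney value turned to -0.02 with normexp.

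The collagenase gene Mmp8 read 44, 37.4 and 22.9 units in brain at control, low and high dose, and 33.4, 21.1 and 16.7 units in kidney. Of these, brain control, brain low dose and kidney control were well above background, so the high-dose values only bound the change. The high dose was at least 1.72-fold lower in brain and at least 1.25-fold lower in kidney. In liver Mmp8 read 26.2 units at the high dose and 20.5 in control, neither well above background. The array error of the Mmp8 difference at the high dose was 0.53 in brain and 0.71 in kidney. Fold bounds, here and below, leave out array error.

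Retnlg, the resistin-like gene, was well above background in control liver alone, with 18.8 units at the high dose against 34.7 in control. The bound was 1.32-fold lower, for a log2 difference of -0.91 (array error 0.56). In brain it read 9.5, 11.5 and 5.8 units and in kidney 10.1, 16.5 and 12.3 units at control, low and high dose, none of them well above background. Ngp read between 6.9 and 20.9 units and Ltf between 5.1 and 22.8 units over the 8 arrays, so neither gave a measurable level. The Mmp9 probe that never exceeded background read between 6.9 and 20.7 units. The other Mmp9 probe read 58.4 units in kidney at the low dose, against 6.9 units in control kidney, at least 2.26-fold higher, while the first probe read 8.3 units on the same low-dose array. The 2 Mmp9 probes therefore disagreed on that array.

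The low dose was profiled in brain and kidney only. These comparisons use the same control arrays as the high dose and are no independent evidence beside it. In brain the log2 differences at the low dose were -0.50 for S100a8 (array error 0.23), -0.51 for S100a9 (0.21), -0.33 for Camp (0.22) and -0.23 for Mmp8 (0.43). In kidney they were -0.13 for S100a8 (0.23), -0.33 for S100a9 (0.21) and 0.14 for Camp (0.29). None of the 4 members measured in brain or the 3 in kidney was called, against 0.306% of all genes lower and 0.444% higher in brain and 0.274% lower and 0.216% higher in kidney. At 1.5-fold no member counted as lower either, against 0.714% of genes in brain and 0.523% in kidney. For Mmp8 in kidney the bound was 1.09-fold lower, for a log2 difference of -0.69 (array error 0.64). S100a8 and S100a9 were below control in all 5 comparisons of both doses, as were 1453 of 17352 genes (8.37%). The smallest S100a8 difference, -0.13, was matched or exceeded throughout by 0.38% of the genes, and the smallest S100a9 difference, -0.33, by 0.0173%. Each share counts the gene itself. Both rest in part on the high-dose differences that chose the pair, so they are no separate support from the low dose.

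High and low dose were also set against each other. High minus low dose gave 0.01 for S100a9 and -0.31 for S100a8 in brain. In kidney it gave -0.59 for S100a9 and -0.85 for S100a8. No member was called between doses either, with 0.734% of genes lower and 0.313% higher in brain, and 0.241% lower and 0.833% higher in kidney. S100a9 thus stood level between doses in brain and lower at the high dose in kidney. At the 1.5-fold limit S100a8 counted as lower in kidney, beside 0.597% of genes, and no member in brain, beside 1.35%. Whether brain and kidney differ in this step was not tested, as each dose is 1 array.

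Over the 5 differences from control, S100a8 and S100a9 lay 0.17 log2 units apart (root mean square distance). Each was the other's closest of 17351 genes measured on all arrays. Camp lay 0.64 from S100a8, with 4338 genes closer, and 0.61 from S100a9, with 6000 genes closer. Of the 10 genes closest to the mean of the S100a8 and S100a9 differences, 4 carry only a sequence or locus identifier. The others were D230040A04Rik (distance 0.28), Insig1 (0.28), which holds back cholesterol synthesis, Fos (0.28), Ltb4r2 (0.29), a leukotriene B4 receptor, the serpin Serpina3i (0.29) and the melanocortin receptor Mc3r (0.31). A second Serpina3i probe was not well above background. The 5 differences share control arrays within a tissue and include the high-dose differences by which S100a8 and S100a9 were chosen together. The nearness of the pair is therefore partly built in by that choice, and is given as a description.

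Tissue, in contrast to dose, could be tested, with the arrays of a tissue standing in as its samples and dose as a factor in the model. S100a9 was highest in liver, then kidney, then brain, with kidney at the high dose just under control brain. Its scaled log2 levels were -0.12 at the high dose and 0.65 in control liver, -0.44, -0.77 and -1.36 in kidney, and -1.30, -1.81 and -1.80 in brain at control, low and high dose. Liver exceeded brain by 1.88 (SE 0.14, limma adjusted p = 2.52e-05) and kidney by 1.10 (SE 0.14, adjusted p = 0.000699), and kidney exceeded brain by 0.79 (SE 0.12, adjusted p = 0.00101). S100a8 levels were -2.10 at the high dose and -1.39 in control liver, -2.59, -2.72 and -3.57 in kidney and -2.68, -3.19 and -3.49 in brain. Liver exceeded brain by 1.42 (SE 0.17, adjusted p = 0.000288) and kidney by 1.26 (SE 0.17, adjusted p = 0.000898). Kidney and brain, which overlapped, differed by 0.16 (SE 0.15, adjusted p = 0.348).

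Camp had another order after scaling, liver above brain above kidney. Its levels were -1.59 at the high dose and -1.45 in control liver, -2.22, -2.55 and -2.42 in brain and -3.56, -3.41 and -3.42 in kidney at control, low and high dose, with no overlap between tissues. Liver exceeded brain by 0.85 (SE 0.16, adjusted p = 0.00244) and kidney by 1.92 (SE 0.16, adjusted p = 7.99e-05), and kidney differed from brain by -1.07 (SE 0.14, adjusted p = 0.000361). For Mmp8 liver differed from brain by 0.61 (SE 0.37, adjusted p = 0.178), kidney from brain by -0.24 (SE 0.32, adjusted p = 0.520) and liver from kidney by 0.84 (SE 0.37, adjusted p = 0.0917). In all, 8 of 12 contrasts of these 4 genes passed. Most of the 39620 probes tested also differ between tissues, 79.8% between liver and brain, 77.2% between kidney and brain and 63.3% between liver and kidney, so the count is not particular to the members.

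These tissue differences depend on the scaling, because the 75th percentile of signal was 427 to 435 units in liver, 729 to 782 in kidney and 919 to 954 in brain. Before scaling, Camp read lower in liver (145 units at the high dose, 155.7 in control) than in brain (161.5 to 205 units). The median of all tested probes was 0.19 above brain in liver and 0.09 above brain in kidney with that scaling. Scaling by the median instead moved these to 0.50 and 0.37. The kidney-brain difference of S100a8 then became 0.44 (adjusted p = 0.0321), and it was 0.43 (adjusted p = 0.0340) with quantile normalization and 0.24 (adjusted p = 0.0295) with normexp. Without the control liver array, which left 1 liver array, the Mmp8 difference between liver and brain became 1.27. Mmp8 was well above background on neither liver array, with 20.5 units in control and 26.2 at the high dose. In brain it read 44, 37.4 and 22.9 units at control, low and high dose before scaling. The scaled difference therefore shows no higher Mmp8 level in liver.

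**Figure D4:**
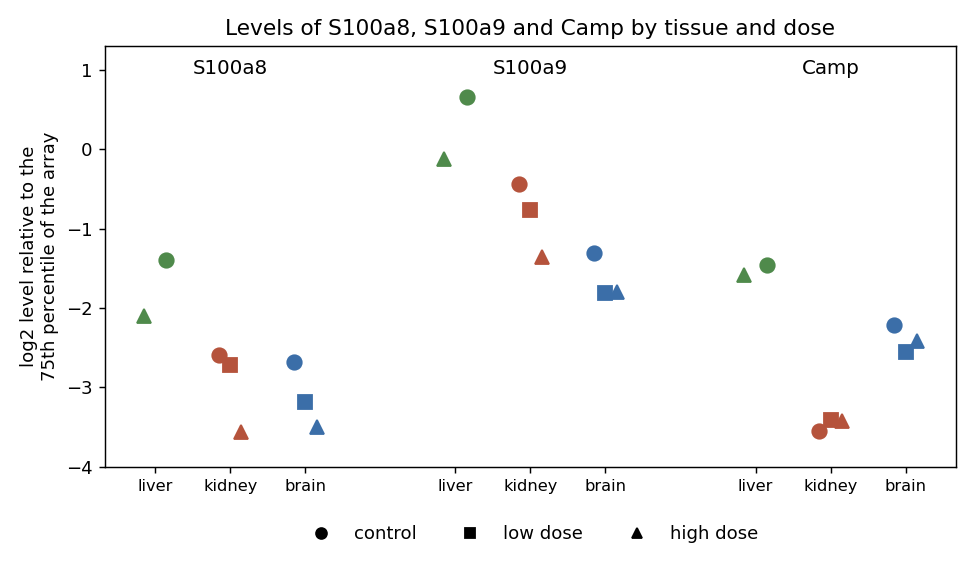
Log2 level relative to the array's 75th percentile for S100a8, S100a9 and Camp in liver, kidney and brain, 1 point per array, shaped by dose. Liver stands highest for all 3 genes, kidney and brain overlap for S100a8, and Camp is lowest in kidney.

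Other genes of neutrophils were set beside the members. Of the azurophil granule genes, Elane (neutrophil elastase) was the one measured in every tissue, with high-dose differences of 0.02 in brain, -0.28 in kidney and -0.01 in liver, none of them called. Its probe read 1291 units in control brain, 1726 in control kidney and 1352.4 in control liver. The azurophil genes Ctsg and Ms4a3 were not well above background on any array, and which cells the Elane probe reads was not tested. Mpo (myeloperoxidase) read 77.2, 68.4 and 47.2 units in brain and 69.9, 42.3 and 27.8 units in kidney at control, low and high dose, lower at each higher dose. Its log2 differences were -0.16 (low) and -0.66 (high) in brain and -0.75 (low) in kidney, and the dim high-dose kidney spot put that array at least 2.61-fold lower. A second Mpo probe was not well above background on any array. In liver Mpo read 34.5 units at the high dose and 29.3 in control, where the spot was dim. That difference of 0.21 was within its array error (0.48). Of 11 other specific granule genes, 7 were measured in brain (median 0.19), 7 in kidney (-0.21) and 5 in liver (-0.11). They included bright probes, with Itgam at 74955.2 units in control brain, Cyba at 110697 in control kidney and Hp at 220009 in control liver. Which cells these probes read was not tested. Among the 11 genes, calls at the high dose came in kidney. Lcn2 (lipocalin 2, which captures bacterial siderophores and is also made by injured tubules) read 637.3 units at the high dose against 194.1 in control, a difference of 1.62. Hp (haptoglobin, which binds free haemoglobin) read 884.7 against 1672.3 units, a difference of -1.02. A second Lcn2 probe was not well above background on both kidney arrays. Cybb, the catalytic subunit of the phagocyte oxidase, read 16.1 units in liver at the high dose against 84 in control, at least 3.18-fold lower, while its other probe, measured on both arrays, gave -0.59. In the other direction, the stefin gene Stfa3 differed by 2.03 in kidney at the low dose. The receptor gene Clec4d was at least 3.37-fold higher in brain at the low dose. Each was dim on the control array.

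The surface receptor genes stayed near control at the high dose, with medians of 0.01 over 6 genes in brain, -0.02 over 7 in kidney and -0.00 over 8 in liver and none called. Csf3r, the receptor for granulocyte colony-stimulating factor, differed by -0.11, -0.13 and 0.04 in these tissues. Its probe was bright throughout, with 101458 units in control brain, 61983.5 in control kidney and 39205.2 in control liver. It was brightest in brain, where Ly6g was not well above background, and which cells it reads was not tested. Ly6g, the surface antigen used to gate mouse neutrophils, differed by -0.22 in kidney and -0.33 in liver. Of the cytosolic and secreted neutrophil genes, Slpi (a protease inhibitor) was called higher in kidney at the high dose, with 929.8 units against 158.8 in control (2.45), while another Slpi probe measured on both arrays gave -0.16. Il1b (interleukin 1 beta) was called lower in liver at the high dose, with 61.8 units against 145.6 in control (-1.27), and its other probes were not measured on both arrays. The neutrophil chemokine Cxcl1 was called higher in kidney at the high dose (2.45) and read 0.13 at the low dose.

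Receptors and partners of calprotectin were close to control. At the high dose Tlr4 differed by -0.00 in brain, -0.01 in kidney and -0.10 in liver, and Ager, which encodes RAGE, by 0.08, -0.11 and 0.13. The median over the receptor list was 0.02 over 6 genes in brain, 0.03 over 6 in kidney and -0.00 over 5 in liver, and none was called. The other S100 genes did not follow S100a8 and S100a9 in brain, where 9 of 10 measured read above control (median 0.13), or in kidney, where 6 of 11 did (median 0.07) and S100a6 differed by 0.98. In liver 7 of 7 read below control (median -0.17), with S100a10 at -0.86. Other matrix metalloproteinase genes had medians of -0.10 in brain, 0.10 in kidney and 0.02 in liver, with none called.

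**Figure D5:**
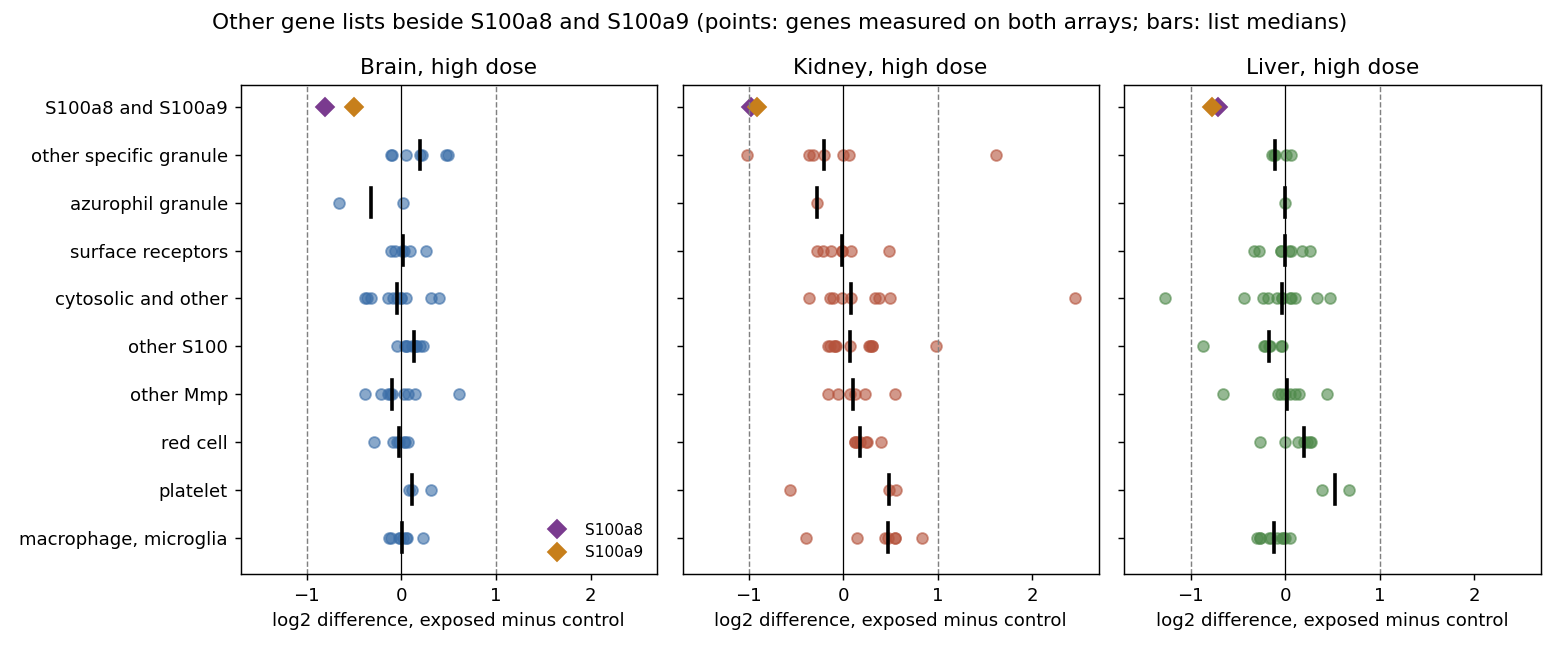
Log2 difference at the high dose for S100a8 and S100a9 (diamonds) and for genes of 9 other lists (points, with a bar at each list's median) in brain, kidney and liver, with dashed lines at 2-fold. List medians lie between -0.32 and 0.53, and S100a8 and S100a9, which were chosen by these values, stand below nearly all points.

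Markers of other blood and immune cells were measured beside the members. Of the 7 red cell genes measured, 7 read above control in kidney at the high dose (median 0.18) and 5 in liver (median 0.20), while in brain the median was -0.02. Their summed relative signal was 289, 292 and 296 in brain and 964, 1147 and 1058 in kidney at control, low and high dose, and 1445 at the high dose against 1232 in control liver. The red cell medians lay between -0.02 and 0.20. S100a8 and S100a9 lay between -0.98 and -0.50, the values by which the pair was chosen, so the gap to the medians is no test. Of 11 macrophage and microglia genes on the array, 7 were measured in kidney at the high dose, of which 6 read above control (median 0.47), and 10 in liver, of which 9 read below (median -0.12). Their summed relative signal was 25.04, 26.6 and 25.5 in brain and 15.3, 14.3 and 13.6 in kidney at control, low and high dose, and 55.6 at the high dose against 58.3 in control liver. Csf1r, the receptor for macrophage colony-stimulating factor, made up most of the kidney sum (-0.39 at the high dose), and without it the kidney sums were 3.06, 3.45 and 4.23. The 3 monocyte genes measured in liver read between -0.12 and -0.01, and the 4 measured in kidney between 0.07 and 0.65. The part of these cells in the S100a8 and S100a9 differences was not tested.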

How the data were processed

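Arrays of 1 Agilent design on 1 slide were used, 1 per group, labelled from 50 ng of RNA per the labels' protocols. The submitters' processing notes name Agilent Feature Extraction 12.0.3.1. Its deposited output gives each spot's linear intensity with background already subtracted, and per the file headers no scaling between arrays was done. Other columns used are 0 or 1 flags (well above background, saturated, outlier) and the software's error of each spot, per the file headers. A series-wide table deposited by the authors proved, set against the scanner files, to be intensity divided by each array's 75th percentile over all spots. It is linear, uncentred and runs in the direction of the signal. Its column medians were 0.112, 0.113 and 0.114 in brain and 0.0940, 0.0905 and 0.0936 in kidney (control, low, high dose), and 0.0918 (high dose) and 0.0915 (control) in liver.

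From log2 processed signal the 75th percentile over non-control spots was subtracted. Between 53.4% and 67.1% of spots per array were well above background. The number of arrays limits the precision, and dim spots carry large array errors. A fold bound used the higher of the dim spot's own level and the lowest level well above background on its array. It leaves out array error, and where the dim spot's own level was the higher it equals the measured fold. A gene with several probes was given by its brightest. Positions of probes are given as the array files have them (mm9). Promoters are from RefSeq (GRCm38.p6). For tissue contrasts, R 4.3.3 and limma 3.58.1 were applied to probes well above background on at least 2 arrays, with factors for tissue and dose, a trended eBayes step and Benjamini-Hochberg adjustment, leaving 3 residual degrees of freedom. Nothing says that the arrays of a tissue came from separate animals, so p-values measure only the spread between these arrays. The rest used Python 3.11.15, pandas 2.3.3, numpy 2.4.6 and matplotlib 3.10.9, and the scripts were tested on simulated data. Named genes were all members, of each other list the 4 with the largest high-dose difference and any called, and the 10 closest to the pair. Some genes within the rule are left to counts, and a few others are named as the defining genes of their list. Members and lists were chosen with earlier results of these data known, and S100pbp, which is no S100 gene, was taken out of the S100 list after its values were seen. Alternatives were median scaling, quantile normalization, normexp (offset 50), the value table, keeping outlier spots, other filters, no array error criterion, the mean of a gene's probes, a model without dose, leaving out each array and a 1.5-fold limit.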

Additional observations from a re-analysis of the deposited data

How the results depend on the processing

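Every S100a8 and S100a9 difference from control kept its sign under median scaling, quantile normalization, normexp, the value table and with outlier spots kept. Normexp, with an offset of 50 added to each corrected signal, gave S100a8 differences of -0.51 in brain, -0.55 in kidney and -0.49 in liver at the high dose. The S100a8 signals themselves ran from 66 units (kidney, high dose) to 162.7 units (control liver). The part of the offset in the smaller differences was not tested. The 1.5-fold limit, added after seeing the data, gave 5 member calls at the high dose against 0 with the 2-fold limit. All were S100a8 or S100a9, which these same values had chosen. Of all genes, 0.543% were lower by that limit in brain, 1.29% in kidney and 1.18% in liver. Between doses it gave 1 call (S100a8 in kidney, beside 0.597% of genes lower). No member was called at the low dose with either limit. Of the 12 tissue contrasts, 8 passed, 8 to 11 under the other settings and 8 when each brain or kidney array was left out in turn. Leaving out a liver array left 1 liver array, so no count is given for those fits. No paired analysis was possible because each group holds 1 array, so the groups share fewer than 2 replicate numbers. Arrays were matched across tissues only by dose, as a factor of the model, and without that factor 8 contrasts passed too. With 1 array per dose and tissue the differences have no replicate check, and 5 of the 8 members were too dim on most arrays to be followed.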

Other observations

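Of 7 genes of keratinised epithelium, 6 were measured in kidney and 2 were called higher at both doses. Sprr1a, a cornified envelope gene, differed from control by 2.49 (low dose) and 2.90 (high), and the basal keratin gene Krt5 by 1.04 (low dose) and 1.03 (high). Of 5 acute phase genes, 2 were measured in kidney. The serum amyloid gene Saa1 was called higher at the high dose (1.86) and read -0.18 at the low dose. Orm1 read 0.15 at the high dose and was called lower at the low dose (-1.02). Saa2, Saa3 and Orm2 were dim on the control and low-dose arrays. At the high dose Saa2 read 29.98-fold above the dim control spot (903.1 units against 28.1). Saa3 was at least 20.29-fold higher (551.9 against 6.5). Orm2 read 50.4 units against 25.9, a difference of 0.86 (array error 0.42). Of 4 liver marker genes, 3 were measured in kidney at the high dose: Serpina1a (3.28) and Alb (1.22) were called higher, and Cyp2e1 read -0.69, with 105341 units at the high dose against 158960 in control. The call rule took 1.12% of all genes as higher and 0.542% as lower in kidney at the high dose. In liver the 5 acute phase genes read between -0.40 and -0.27, and Krt1 was called lower (-1.45), with a second Krt1 probe not measured on both arrays. In brain the mast cell protease gene Mcpt4 was called lower (-1.04). Each value rests on 1 array per group.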
